A study of Mus musculus with 13 samples.

Results

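Of 33618 genes in the count table, 3 long noncoding RNA (lncRNA) genes are described here, *Gm13703*, *BC106179* and *Gm15179*, together with the protein-coding genes around them. They were chosen by the contrast between the libraries labelled iADKO and those labelled fl/fl in these same data, as lncRNA genes with large differences and no overlap between the labels. Their differences are therefore given as a description, with no test. GENCODE calls 6853 genes of the table lncRNA, and 1614 of these, all 3 chosen genes among them, had enough counts to be tested.

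The libraries are bulk RNA sequencing of mouse parametrial white adipose tissue, the fat pad beside the uterus. The fl/fl label covers 7 libraries and the iADKO label 6, with total counts from 18854223 to 19776491. Mice of either label carried *Lmna* alleles in which *loxP* sites flank a part of the gene, and all received tamoxifen at 50 mg/kg on 5 consecutive days at 12 to 14 weeks of age, with dissection 2 weeks later. Only mice labelled iADKO also carried the *Adipoq*-CreERT2 transgene, a tamoxifen-activated Cre recombinase under the control of the adiponectin gene, which marks adipocytes among the cells of the fat pad. Effects of the deletion and of the transgene cannot be told apart in this design.

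A lncRNA is a transcript without a long open reading frame that is usually spliced and capped like an mRNA. Some lncRNAs act at the place where they are transcribed, on genes nearby, some act elsewhere as RNA molecules, and for many no role is known. Lamin A and lamin C, the products of *Lmna*, form a mesh under the nuclear membrane that holds silent chromatin at the edge of the nucleus.

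Levels are CPM, the counts of a gene over the library total in units of 1e6, scaled with the trimmed mean of M-values (TMM). The TMM factors ran from 0.892 to 1.02 in the fl/fl libraries and from 1.05 to 1.10 in the iADKO libraries. Fold changes are log2, iADKO minus fl/fl, from edgeR with a quasi-likelihood test, and a gene is past the threshold at a Benjamini-Hochberg adjusted p under 0.05. *Lmna* itself ranged from 74.7 to 98.5 CPM, with a median of 83.5, in the fl/fl libraries. In the iADKO libraries it ranged from 80.1 to 109.0 CPM, with a median of 96.8. The labels overlapped, and the iADKO label did not go with a lower *Lmna* count. Over library totals alone, without TMM, *Lmna* was at 75.3 to 87.7 CPM in fl/fl and 83.6 to 119.7 CPM in iADKO. Its log2 fold change was 0.19 (SE 0.08, edgeR adjusted p 0.0785), and an exact two-sided permutation test of the CPM values gave p 0.0478. It passed the edgeR threshold without fl/fl replicate 1 (0.23) and without iADKO replicate 6 (0.24), in both cases as higher in iADKO. Counts over the whole gene do not resolve the part between the *loxP* sites, and the tissue also holds cells in which Cre is not active.

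The tissue label was checked with marker lists. Of all genes tested, 30.5% were past the threshold in either direction. All 9 adipocyte markers were detected and all 9 were lower in iADKO (edgeR adjusted p under 0.05). Their summed level was 17489 to 27377 CPM in fl/fl, with a median of 24142, and 11149 to 19392 CPM in iADKO, with a median of 12909. *Cfd* was the most abundant of them. Fewer cells of a type and less RNA per cell cannot be told apart in these libraries. Of 9 macrophage markers, 6 were higher and 0 lower. Their sum was 1954 to 5195 CPM in fl/fl (median 2337) and 3019 to 5195 CPM in iADKO (median 4446), with *Lyz2* the most abundant. The library fl/fl 5 had the lowest adipocyte sum and the highest macrophage sum of its label, and iADKO 6 had the highest adipocyte sum and the lowest macrophage sum of its label.

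The other lists moved less evenly. Of 6 T cell markers, 3 were higher, with sums of 17.1 to 29.3 CPM in fl/fl (median 24.6) and 31.9 to 37.0 CPM in iADKO (median 33.3), and *Cd4* the most abundant. Of 6 B and plasma cell markers, 2 were higher, with sums of 438 to 1471 CPM (median 723) and 820 to 1718 CPM (median 1519), led by *Jchain*. Of 5 proliferation markers, 4 were higher, with sums of 23.8 to 43.0 CPM (median 37.7) and 35.4 to 56.3 CPM (median 51.9), led by *Mki67*. These 3 lists had no marker past the threshold as lower. Of 5 endothelial markers, 3 were lower, with sums of 756 to 1037 CPM in fl/fl (median 931) and 771 to 877 CPM in iADKO (median 799), and *Pecam1* the most abundant. None of the 6 progenitor, 5 mesothelial, 4 smooth muscle and 4 skeletal muscle markers passed the threshold. Progenitor sums were 3253 to 4014 CPM in fl/fl (median 3454) and 2941 to 4471 CPM in iADKO (median 4019), led by *Dcn*, and mesothelial sums were 312 to 651 CPM (median 462) and 280 to 754 CPM (median 573), led by *Upk3b*. Smooth muscle sums were 344 to 763 CPM (median 494) and 447 to 1776 CPM (median 705). By mean, *Acta2* led them in fl/fl (226.0 CPM, *Myh11* 221.4 CPM) and *Myh11* in iADKO (439.5 CPM, *Acta2* 347.0 CPM). Skeletal muscle sums were 16.2 to 338 CPM (median 57.9) and 9.98 to 186 CPM (median 18.0), led by *Acta1*. No marker of any list was at 0 in every library. The part of these shifts in the levels of the lncRNAs was not tested.

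*Gm13703* (ENSMUSG00000085519) lies on chromosome 2 of GRCm39, from 73187612 to 73194860 on the plus strand. In fl/fl replicates 1 to 7 its level was 0.862, 0.933, 1.16, 0.268, 0.101, 0.221 and 0.162 CPM. In iADKO replicates 1 to 6 it was 4.48, 5.27, 5.97, 4.56, 2.58 and 4.91 CPM. Every iADKO library was above every fl/fl library, and the lowest of them, iADKO 5, was 2.23-fold above the highest fl/fl library, fl/fl 3. Within fl/fl, replicates 1, 2 and 3 were higher than the other 4. The fl/fl mean was 0.529 ± 0.437 CPM (SD, n = 7) and the iADKO mean 4.63 ± 1.14 CPM (SD, n = 6), which differ on the log2 scale by 3.13 (edgeR fold change, SE 0.42). The counts behind these values were small, from 2 to 124 per library and 644 in all.

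*BC106179* (ENSMUSG00000045231) lies on chromosome 16, from 23034774 to 23044234 on the minus strand. Its level in fl/fl replicates 1 to 7 was 0.805, 1.10, 0.693, 1.23, 1.67, 1.27 and 1.51 CPM. In iADKO replicates 1 to 6 the level was 8.03, 6.53, 6.78, 7.77, 7.36 and 8.59 CPM. The labels were far apart, with the lowest iADKO library 3.91-fold above the highest fl/fl library. The fl/fl mean was 1.18 ± 0.352 CPM (SD, n = 7) and the iADKO mean 7.51 ± 0.777 CPM (SD, n = 6), which differ on the log2 scale by 2.65 (SE 0.17). Counts per library ran from 12 to 175, and 1090 in all. Its coefficients of variation, 29.8% in fl/fl and 10.3% in iADKO, were the lowest of the 3 genes.

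*Gm15179* (ENSMUSG00000085653) lies on chromosome 1, from 75313476 to 75352605 on the minus strand, and was lower in iADKO. The fl/fl levels, replicates 1 to 7, were 3.56, 1.70, 1.62, 10.9, 1.87, 3.59 and 1.78 CPM. The iADKO levels, replicates 1 to 6, were 0.973, 0.606, 0.722, 0.767, 0.669 and 1.42 CPM. The labels were separated narrowly, the lowest fl/fl library being 1.14-fold above iADKO 6, and fl/fl 4 stood far above the rest of its label. Over library totals alone, without TMM, the labels overlapped, with fl/fl 3 at 1.46 CPM and iADKO 6 at 1.48 CPM. The fl/fl mean was 3.57 ± 3.34 CPM (SD, n = 7) and the iADKO mean 0.860 ± 0.303 CPM (SD, n = 6), which differ on the log2 scale by -2.05 (SE 0.49). Without fl/fl replicate 4 it was -1.45. Counts per library ran from 13 to 203, and 566 in all.

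**Figure D1:**
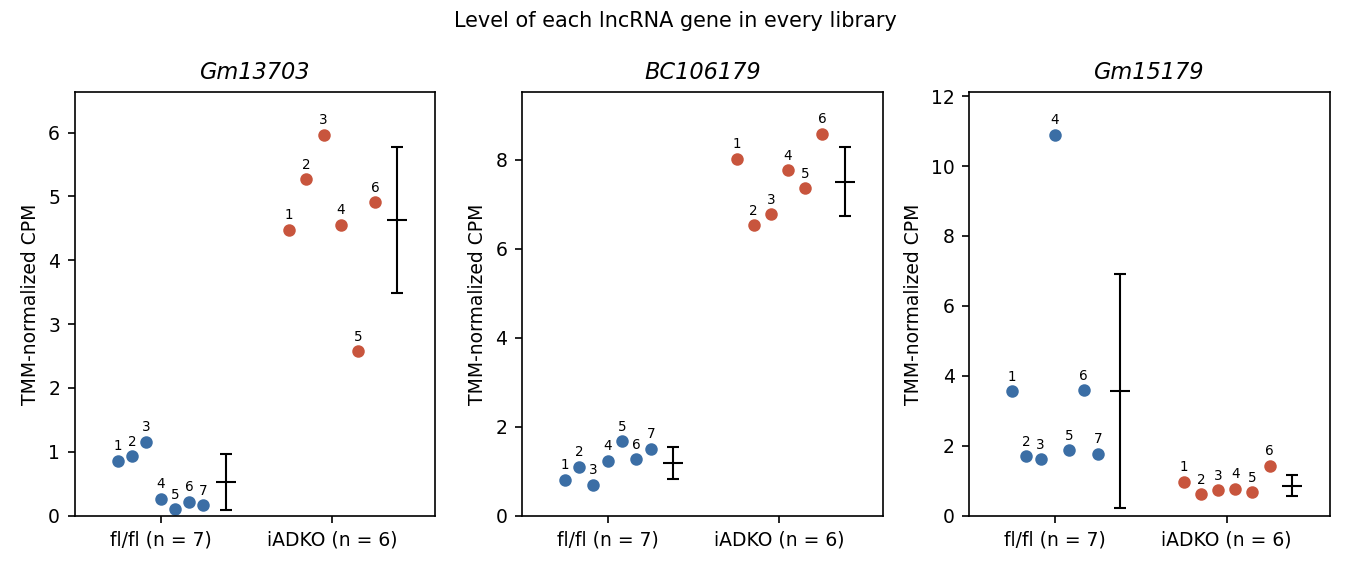
TMM-scaled CPM of the 3 lncRNAs in each library by label, with the replicate number beside each point and bars for the mean ± SD. *Gm13703* and *BC106179* are higher in every iADKO library than in any fl/fl library, and *Gm15179* is lower in each.

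Per kilobase of exon, the order of the 3 genes differed between the labels. In fl/fl libraries the mean level was 0.899 CPM per kb for *Gm15179*, 0.592 for *Gm13703* and 0.223 for *BC106179*. The spread of *Gm15179* and *Gm13703* in fl/fl, with coefficients of variation of 93.6% and 82.7%, was larger than the distance between them. The first place of *Gm15179* rests on fl/fl 4. Without this library the fl/fl means were 0.592 CPM per kb for *Gm15179* and 0.640 for *Gm13703*, so that their order turned. In iADKO libraries the mean level was 5.18 CPM per kb for *Gm13703*, 1.41 for *BC106179* and 0.216 for *Gm15179*. Among the lncRNA genes tested, *Gm13703* went from percentile 50.1 in fl/fl to 95.3 in iADKO, *BC106179* from 17.9 to 79.5, and *Gm15179* from 64.4, or 49.8 without fl/fl 4, to 17.7.

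Across all genes tested, 5104 of 16753 passed the threshold (30.5%). Among lncRNA genes 325 of 1614 passed (20.1%), 107 higher and 218 lower in iADKO, and among protein-coding genes 4655 of 14133 passed (32.9%). The 3 genes were past it with no overlap between the labels on the TMM scale, as the choice required. That holds for 83 lncRNA genes in all (5.14%) and for 7.12% of protein-coding genes. The median log2 fold change was 0.03 over all genes tested and -0.04 over lncRNA genes. By fold change *Gm13703* and *BC106179* ranked 1 and 2 among lncRNA genes in the higher direction, and *Gm15179* ranked 4 in the lower direction. That rank rests on fl/fl 4, and without this library it was 20. The 3 lncRNAs with a lower fold change than *Gm15179* were *Acss2os* (-2.55), *A330041J22Rik* (-2.55) and *Gm34759* (-2.46), and in each the labels overlapped.

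Where genes with an average log2 CPM under 0 are set aside, 25 higher and 48 lower lncRNA genes were past the threshold with no overlap. Next after the chosen genes came *2700038G22Rik* (log2 fold change 1.42), *A230028O05Rik* (1.15) and *Snhg15* (1.03) in the higher direction. In the lower direction they were *Gm12265* (-1.73), *Gm44386* (-1.72), *Snhg11* (-1.57) and *Gm15756* (-1.44). *Snhg11* was far more abundant than the chosen genes, its fl/fl mean being 130.5 ± 20.1 CPM (SD, n = 7) and its iADKO mean 44.0 ± 9.49 CPM (SD, n = 6).

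Of a list of 31 lncRNAs with known names, 29 were in the table and 27 were tested, with 4 higher, 1 lower and 22 not past the threshold, where 20.1% of lncRNA genes tested were past it. GENCODE types 1 of the listed genes, *Tug1*, as protein-coding. The higher ones were *Gas5* (log2 fold change 0.36), *Snhg1* (0.50), *Trp53cor1* (1.24) and *Pvt1* (0.65), and the lower one was *Firre* (-0.25). The median over the 27 was 0.10, beside 0.03 over all genes tested. *Malat1* and *Neat1*, nuclear RNAs that are abundant in most tissues, were not past the threshold, at log2 fold changes of -0.08 and -0.17. *Xist*, which coats the inactive X chromosome, was at -0.06 and not past it either.

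All 3 genes share exonic bases with a protein-coding gene on the opposite strand. The libraries were strand-specific, but the strand setting of the counting is not stated, so counts in shared bases may belong to either gene. *Gm13703* has 2 transcripts and 3 exon blocks of 894 bases in all, lies inside *Gpr155*, and shares 120 bases (13.4%) with its exons. *BC106179* has 4 transcripts and 5 exon blocks of 5315 bases, and shares 217 bases (4.08%) with the start of *St6gal1*. It also overlaps 2169 exonic bases of another lncRNA, *B630019A10Rik*, which was not past the threshold (log2 fold change 0.38, edgeR adjusted p 0.272). *Gm15179* has 26 transcripts and 12 exon blocks of 3975 bases, of which 379 (9.53%) are shared, 288 with *Des* and 91 with *Speg*. Stretches of at least 100 bases with at least 95% identity elsewhere in the genome covered 0% of the exons of *Gm13703*, 5.27% of those of *BC106179* and 5.48% of those of *Gm15179*.

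Within 100 kb of the 3 genes GENCODE places 17 protein-coding genes, and 14 of them were tested. Of the 14, 6 were past the threshold, 2 higher and 4 lower in iADKO, against 32.9% of protein-coding genes. Their median log2 fold change was -0.06. Within 50 kb, 2 of 7 tested genes passed, and within 250 kb 14 of 34 did, 5 higher and 9 lower. *Sp9*, *Resp18* and *Asic4* had too few counts to be tested, with 105, 1 and 18 in all.

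Around *Gm13703*, the gene that holds it, *Gpr155*, was at 22.8 to 28.5 CPM in fl/fl (median 23.8) and 23.8 to 29.6 CPM in iADKO (median 27.2). These ranges overlap, and its log2 fold change was 0.10 (SE 0.07, edgeR adjusted p 0.314). *Scrn3*, 19.3 kb away, was lower, with a log2 fold change of -0.27 (SE 0.09, edgeR adjusted p 0.0360) and overlapping labels. It was no longer past the threshold in 10 of 13 fits that left a library out. The call was also lost with the replicate block (-0.29), the run block (-0.22) and the joined run block (-0.28). Over library totals alone, without TMM, *Scrn3* was at 22.8 to 27.5 CPM in fl/fl and 22.7 to 30.6 CPM in iADKO. *Wipf1*, which encodes a partner of the actin regulator WASP, was higher at 0.32 (SE 0.09, edgeR adjusted p 0.0211), with fl/fl 5 at 86.9 CPM against 58.3 to 65.4 CPM in the other fl/fl libraries. Without iADKO replicate 2 its edgeR adjusted p was 0.0539. With the run block (0.28) and the joined run block (0.29) *Wipf1* was not past the threshold. *Cir1*, a transcriptional corepressor, was not past the threshold (0.09, edgeR adjusted p 0.333).

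Around *BC106179*, *Rfc4*, a subunit of the clamp loader of DNA replication, was at 3.85 to 4.69 CPM in fl/fl (median 4.25) and 5.24 to 7.15 CPM in iADKO (median 6.65). The labels did not overlap, and it was higher in all 6 iADKO libraries, with a log2 fold change of 0.60 (SE 0.09, edgeR adjusted p 5.93e-04). *Adipoq*, which encodes adiponectin and lies 58.0 kb away, was at 1639 to 2609 CPM in fl/fl (median 2132) and 961 to 1747 CPM in iADKO (median 1245). The ranges overlap, and the log2 fold change was -0.75 (SE 0.13, edgeR adjusted p 0.00155). *Adipoq* is also the gene whose control sequences drive the transgene, and it is among the adipocyte markers. What mouse sequence the transgene holds is not given in the sources used. If it holds genes that lie near *Adipoq*, whichever way they moved, counts from its copies cannot be told apart from counts of the genes in their place. *St6gal1*, a sialyltransferase whose start overlaps *BC106179*, was not past the threshold at 0.40 (SE 0.15, edgeR adjusted p 0.0632), but passed without fl/fl replicate 5 (0.54) and without iADKO replicate 6 (0.45), and with DESeq2 (0.39) and the replicate block (0.47). Just outside the window, 102 kb away, the translation factor gene *Eif4a2* was higher with no overlap, at 0.39 (SE 0.07, edgeR adjusted p 0.00147). *Kng2* (0.19) and *Masp1* (-0.02), also outside the window, were not past the threshold. Within 250 kb of *BC106179*, 3 of 6 protein-coding genes tested passed, 2 higher and 1 lower.

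Around *Gm15179*, the cochaperone gene *Dnajb2* was at 54.8 to 80.1 CPM in fl/fl (median 67.2) and 44.8 to 52.8 CPM in iADKO (median 47.8). The labels did not overlap, and it was lower in all 6 iADKO libraries, with a log2 fold change of -0.47 (SE 0.07, edgeR adjusted p 7.00e-04). The peptidase gene *Dnpep*, 18.8 kb away, was lower at -0.31 (SE 0.07, edgeR adjusted p 0.00346), with overlap. Over library totals alone, without TMM, *Dnpep* was at 55.4 to 67.7 CPM in fl/fl and 55.8 to 61.2 CPM in iADKO. *Des* and *Speg*, muscle genes whose exons overlap *Gm15179*, were not past the threshold, at 0.66 (SE 0.26, edgeR adjusted p 0.0690) and -0.19 (SE 0.18, edgeR adjusted p 0.452). *Des* moved with single libraries, to 0.34 without iADKO replicate 5 and to 0.80, past the threshold, without iADKO replicate 1. *Speg* was highest in fl/fl 4, the library in which *Gm15179* was highest, and was at 0.02 without it. *Ptprn*, *Gmppa* and *Chpf* were not past the threshold in edgeR, and the mean of *Ptprn* in fl/fl rests on fl/fl 7 (9.43 CPM).

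**Figure D2:**
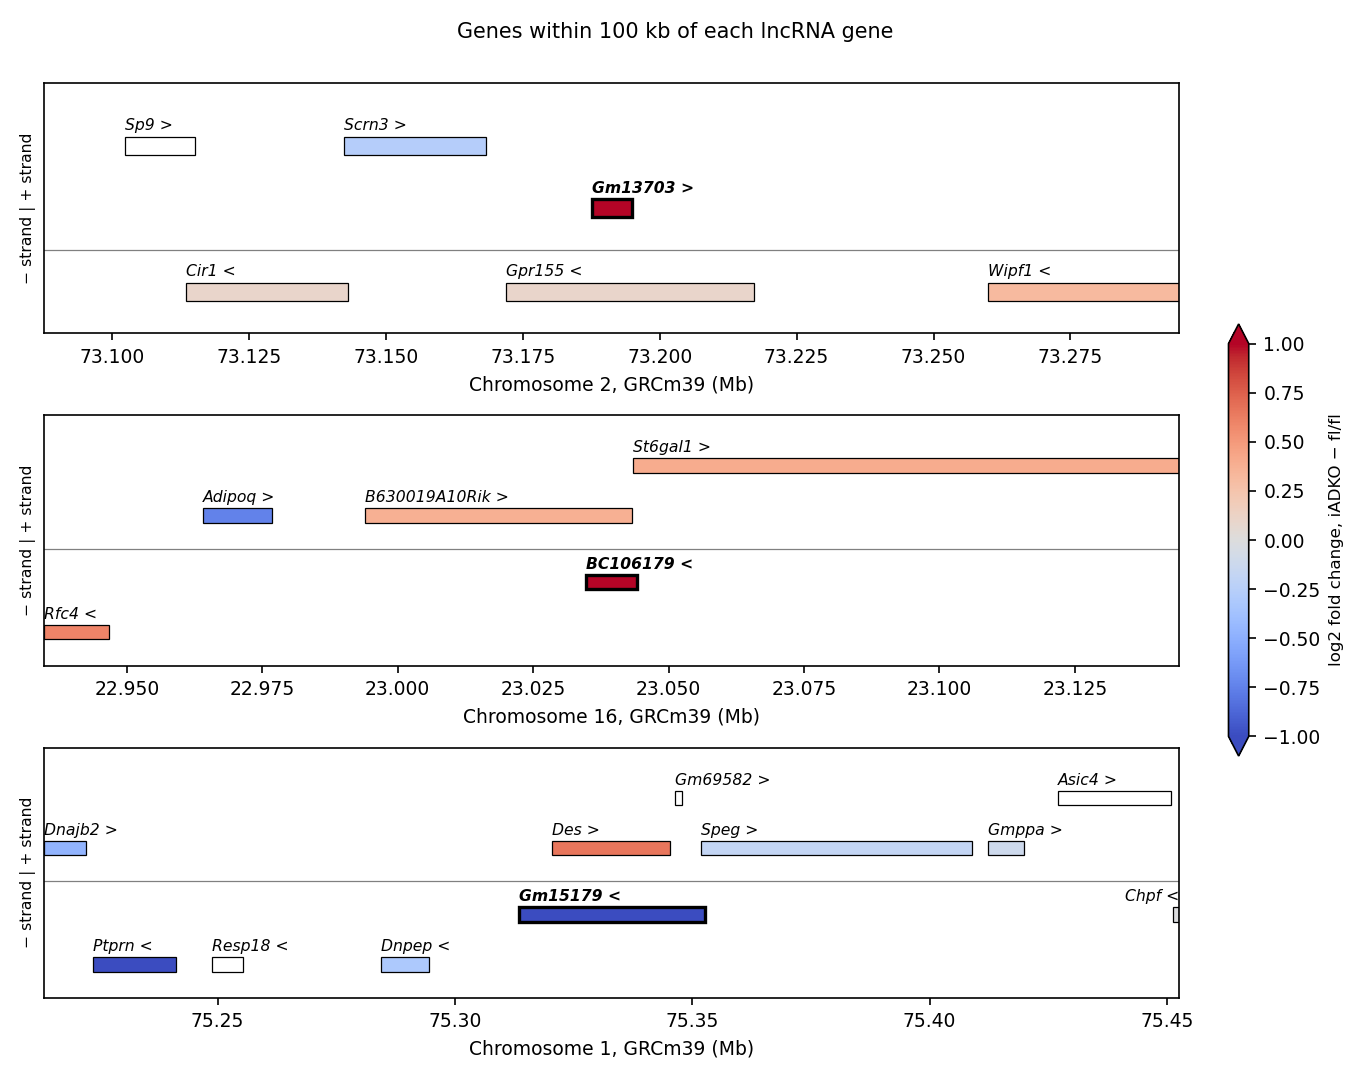
Protein-coding genes within 100 kb of each lncRNA in GRCm39, and other lncRNAs that overlap it, drawn to scale by strand and coloured by log2 fold change, with the colour scale ending at 1 in either direction, white for genes not tested or absent from the table, and bars cut at the window edge. All 3 lncRNAs lie on the strand opposite to the protein-coding genes they overlap.

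**Figure D3:**
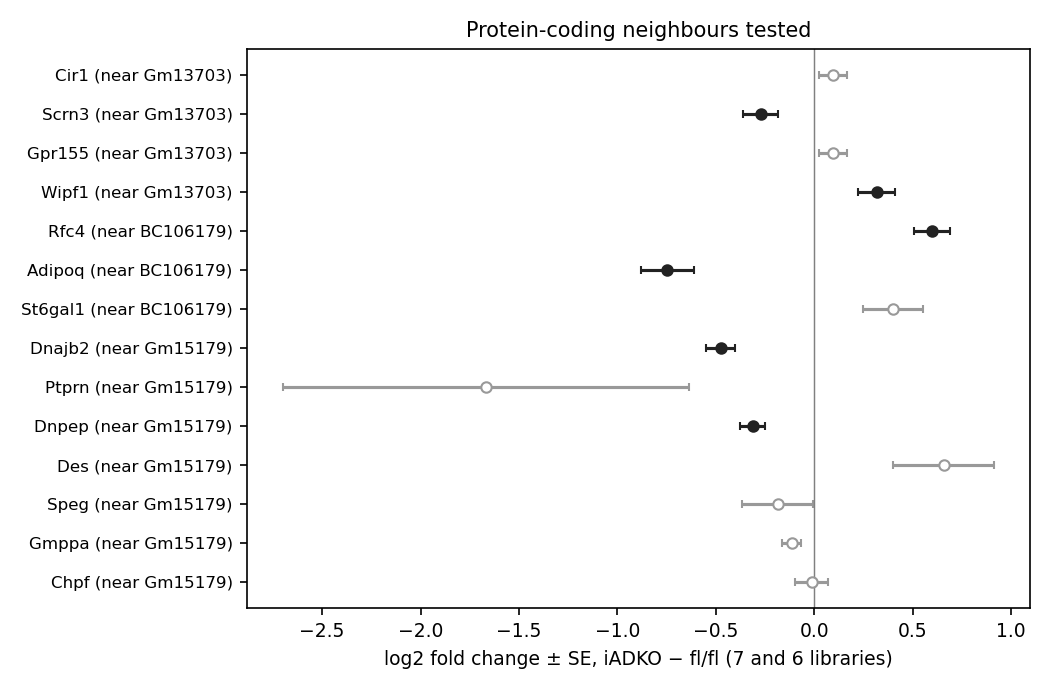
Log2 fold change, iADKO minus fl/fl, of the 14 tested protein-coding neighbours, with bars for the SE and filled points for an edgeR adjusted p under 0.05. *Rfc4* and *Wipf1* are the filled points above 0, and *Adipoq*, *Dnajb2*, *Dnpep* and *Scrn3* are those under 0.

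Each library name carries a number, and what the numbers stand for is not stated. They fall into runs, and 2 runs held both labels. In the run from 722 to 727, with 2 libraries of each label, the log2 ratio of means was 4.68 for *Gm13703*, 2.49 for *BC106179* and -2.54 for *Gm15179*, the last with fl/fl 4 among its fl/fl libraries. In the run from 747 to 750, with 3 fl/fl libraries and 1 iADKO library, the ratios were 2.42, 2.92 and -1.92. Its fl/fl libraries are replicates 1, 2 and 3, those with the higher *Gm13703* levels of their label. The other runs held 1 label each. With the run as a block in edgeR, 54 of 16753 genes (0.322%) were past the adjusted threshold, 4 lncRNA genes and 0 of the 14 neighbours among them, while 4 neighbours had an unadjusted p under 0.05. DESeq2 without a block called 9 neighbours, adding *St6gal1*, *Des* and *Gmppa* to the 6, where it called 34.1% of all genes. With the run as a block in edgeR, *Gm15179* was at -2.31 and no longer past the threshold.

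Each lncRNA was compared with its tested neighbours within each label, which gave 28 relations. By exact permutation tests 3 had an unadjusted Pearson p under 0.05 and 0 passed after Benjamini-Hochberg adjustment, the smallest adjusted p being 0.194. By Spearman's rho, 1 was under 0.05 unadjusted and 0 after adjustment. *Gm13703* and *Scrn3* gave r 0.76 in fl/fl (n = 7, exact permutation p 0.0131, adjusted 0.194), with rho 0.82 (exact permutation p 0.0341, adjusted 0.521) and r 0.82 without fl/fl 3 and fl/fl 2. *BC106179* and *St6gal1* gave r 0.78 in fl/fl (n = 7, exact permutation p 0.0381, adjusted 0.303), with rho 0.71 (exact permutation p 0.0881, adjusted 0.521) and r 0.87 without fl/fl 3 and fl/fl 1. *Gm15179* and *Chpf* gave r -0.89 in iADKO (n = 6, exact permutation p 0.0139, adjusted 0.194), with rho -0.83 (exact permutation p 0.0583, adjusted 0.521). That relation fell to r -0.48 without iADKO 6 and iADKO 1, and so rests on them. *Gm15179* and *Speg* gave r 0.87 in fl/fl (n = 7, exact permutation p 0.0506, adjusted 0.303) and rho 0.39 (exact permutation p 0.396, adjusted 0.692), and r 0.26 without fl/fl 4 and fl/fl 6. In the other label, r was -0.21 for *Scrn3*, -0.12 for *St6gal1* and -0.50 for *Speg* (iADKO), and -0.16 for *Chpf* (fl/fl). With the mean of each run of library numbers taken out, r over the 7 fl/fl libraries was 0.87 for *Scrn3*, 0.71 for *St6gal1* and 0.91 for *Speg*, the last with fl/fl 4 included. Other relations also moved in fl/fl. *Gm13703* went from -0.37 to 0.70 with *Cir1*, from -0.20 to -0.54 with *Gpr155* and from -0.60 to -0.81 with *Wipf1*. *BC106179* went from -0.52 to -0.77 with *Rfc4* and from -0.61 to -0.39 with *Adipoq*. *Gm15179* went from 0.08 to 0.59 with *Dnajb2*, from 0.22 to 0.64 with *Dnpep* and from -0.04 to 0.46 with *Des*. It went from -0.27 to -0.50 with *Ptprn*, from 0.53 to 0.50 with *Gmppa* and from -0.16 to -0.07 with *Chpf*. For *Chpf* only 4 iADKO libraries share a run (r -0.995), too few to read.

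Among 13854 genes with an average log2 CPM of 1 or more, those most like each lncRNA over the 13 libraries, after the mean of each label was taken out, are given as a description with no p. For *Gm13703* they were *Lpin1* (r 0.96), *Armc1*, *Ggt7*, *Copg1* and *Cdc42ep4* (each r 0.95). Of these, *Lpin1*, which encodes a phosphatidate phosphatase, and *Ggt7* were past the threshold, both lower in iADKO where *Gm13703* was higher. For *BC106179* they were the lncRNA *Gm49602* (r 0.93), *Pms1* (0.92), *Ankrd28* (0.91), *Trmt2b* (0.91) and *Id2* (0.91), of which *Gm49602*, *Pms1* and *Id2* were past the threshold, as higher. For *Gm15179* they were *Lzts1* (r 0.94), *Idh1* (0.94), *Rps6kl1* (0.92), *Glud1* (0.92) and *Mtss2* (0.89), of which *Lzts1*, *Idh1* and *Glud1* were past it, as lower. These r include fl/fl 4, where *Gm15179* was at 10.9 CPM and the next fl/fl library at 3.59 CPM. How far they rest on that library was not tested. *Gm13703* in fl/fl differs between runs of library numbers. With the mean of each label in each run taken out, over the 11 libraries not alone in theirs, r was 0.82 to 0.95 for the genes like *Gm13703*, 0.70 to 0.90 for those like *BC106179* and 0.93 to 0.99 for those like *Gm15179*. The genes were chosen by r in these same libraries, which favours a high r here too. Each group of a label in a run held only 2 or 3 libraries, fl/fl 4 among them. These r are therefore a description and no check on the runs.

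The RefSeq promoter table (GRCm38.p6, 250 bases before to 50 after each start) holds 2 of the 3 genes, *BC106179* and *Gm15179*. *Gm13703* has no entry. Each promoter matched the GRCm39 genome at 1 place. Both strands were searched for the TATA box TATAAA, the CCAAT box, the GC box GGGCGG, the E box CACGTG, the AP-1 motif TGANTCA, the ETS motif GAGGAA and the nuclear receptor motif GGTCA. The *BC106179* promoter (chr16:23044185-23044484, minus strand) has CACGTG at 129 and 289 from its 5′ end, a motif that 7.15% of 32851 promoters hold, and GGTCA at 103 (40.5%). All of this stretch lies inside an exon of *St6gal1* on the opposite strand (chr16:23044178-23044929). The *Gm15179* promoter (chr1:75351610-75351909, minus strand) has GGGCGG at 172 (35.7%) and GAGGAA at 275 and 281 (28.3%). A match is a run of letters and not a site of binding.

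The sequences shown lie outside the exons of the overlapping protein-coding genes. Those of *Gm13703* still lie inside the body of *Gpr155*, and that of *BC106179* inside the body of *St6gal1*. RNA from the introns of these genes would cover the same positions, so position alone does not tell them apart there. The *Gm15179* stretch lies outside the bodies of *Des* and *Speg*. For *Gm13703* the sequences are the first 2 exon blocks (chr2:73187612-73187714 and chr2:73189847-73190108, plus strand, GRCm39). For *BC106179* it is the stretch of an exon block beside an exon of *St6gal1* (chr16:23043980-23044122, minus strand). For *Gm15179* it is the part of the promoter outside *Speg* (chr1:75351610-75351776, minus strand), which also lies within an exon block of *Gm15179* in GENCODE, since the RefSeq start is inside the GENCODE gene. Capitals there mark GGGCGG, read on the other strand as CCGCCC, and GAGGAA.
Gm13703 exon block 1: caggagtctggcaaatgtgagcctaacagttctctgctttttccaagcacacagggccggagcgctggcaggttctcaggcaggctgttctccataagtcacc
Gm13703 exon block 2: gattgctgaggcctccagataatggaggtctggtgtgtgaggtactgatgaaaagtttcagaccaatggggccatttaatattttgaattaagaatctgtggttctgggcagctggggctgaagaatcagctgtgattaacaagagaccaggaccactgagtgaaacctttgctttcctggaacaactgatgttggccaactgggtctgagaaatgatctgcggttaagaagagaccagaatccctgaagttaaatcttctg
BC106179 exon stretch: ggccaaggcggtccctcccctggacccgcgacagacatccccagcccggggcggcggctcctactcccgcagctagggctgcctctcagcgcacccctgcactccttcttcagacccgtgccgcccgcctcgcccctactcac
Gm15179 promoter part: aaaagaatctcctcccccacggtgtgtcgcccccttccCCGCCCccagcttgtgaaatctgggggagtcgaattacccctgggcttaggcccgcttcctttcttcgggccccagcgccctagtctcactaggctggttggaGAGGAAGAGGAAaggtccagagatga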

How the data were processed

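Libraries were strand-specific mRNA libraries sequenced as paired ends. The authors ran FastQC 0.12.1, STAR 2.7.11a on mm39 and DESeq2. The counting tool, its strand setting and the annotation are not stated. The deposited tables hold raw counts per gene and, from the authors, regularised values on a log2 scale. Raw counts were used here with edgeR 4.0.16 in R 4.3.3 (filterByExpr, TMM, robust quasi-likelihood test, Benjamini-Hochberg over all genes tested). Genes were placed by Ensembl ID in GENCODE vM39 on GRCm39, which held 33184 of 33618 IDs. Alternatives used DESeq2 1.42.0, limma 3.58.1 on the log2 values, other filters, blocks and leaving libraries out. Permutation tests used scipy 1.17.1 in Python 3.11.15, and copies were sought with blastn 2.17.0. The members and lists were chosen with earlier results of these data known. Named lncRNAs were the 5 per direction with the largest change among those past the threshold with no overlap and an average log2 CPM of 0 or more. Like genes were the 5 with the highest correlation among those with an average log2 CPM of 1 or more.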

Additional observations from a re-analysis of the deposited data

Results flagged for a closer look

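In 25 genes, 50 groups of libraries of one label were looked at for a library far from the others, and 5 values were found. The measure was the gap to the next library over the range of the label. A share of about 1 in 20 groups was taken as what chance gives. That share may not hold for skewed or low counts, so the values are a description only. *Gm15179* in fl/fl 4 was at 10.9 CPM, and *Speg*, whose exons it overlaps, was at 75.3 CPM in the same library. *Wipf1* was at 86.9 CPM in fl/fl 5, and *Ptprn* was at 9.43 CPM in fl/fl 7. The lncRNA *Gm12265* was at 1.32 CPM in fl/fl 5, the lowest of its label. The cause of these values was not tested.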

How the results depend on the processing

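With the run of library numbers as a block, genes past the threshold went from 5104 to 54, lncRNA genes from 325 to 4 and protein-coding neighbours from 6 to 0 (edgeR, with 4 at an unadjusted p under 0.05; DESeq2 without a block called 9). With number 765 joined to the run from 747 to 750 they were 1986, 111 and 4, with *Scrn3* and *Wipf1* no longer past the threshold. Under the first of these blocks *Gm15179* was at -2.31 and no longer past the threshold, and the cause was not tested. Leaving out a library gave 3998 to 6604 genes, 235 to 416 lncRNA genes and 4 to 7 neighbours, and the replicate block (without fl/fl 7) gave 4833, 290 and 6. With the replicate block *St6gal1* was gained and *Scrn3* was lost. Libraries were not otherwise paired by sample number. Pairs with the same number had a mean r of 0.107 and other pairs -0.020, and 3 of 6 matched best with their own number.

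The members kept their direction in every alternative that gave a value. Their choice, with no overlap between these labels, fixed this beforehand where a library was left out, so it is a description only. Leaving out a library gave 2.95 to 3.44 for *Gm13703*, 2.56 to 2.76 for *BC106179* and -2.25 to -1.45 for *Gm15179*. The replicate block gave 3.10, 2.75 and -1.89, and limma on the log2 values gave the smallest, 1.07, 1.22 and -0.65. *Gm13703* has no value under a minimum of 10 counts in every library. The alternatives for *Lmna*, for the other named lncRNAs and for the ranks and levels per kb were chosen after seeing the data. *Lmna* was 0.15 to 0.24 with a library left out. The other lncRNAs kept their direction and their side of the threshold in 156 fits with a library left out and in 80 others, and in 13, all with a run block, they kept their direction and were no longer past it. Those named for a large change had also been chosen with no overlap, which fixed their direction where a library was left out.

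Directions changed in neighbours that were not past the threshold. *Ptprn* was 0.65 with DESeq2, 0.36 with the run block and 0.59 with the joined block. *Chpf* was 0.032 with the run block and -0.061 to 0.038 with a library left out, and *Speg* was -0.25 to 0.020 with a library left out. The cause was not tested. Counts of 2 to 20 in fl/fl libraries limit the precision of *Gm13703*, and bases shared with genes on the other strand limit what the counts of all 3 lncRNAs can be assigned to.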
